A study of Mus musculus with 23 samples.

Results

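Among the 28861 genes in the count table of testis, the part described here holds 43. Their mean level in NZO/HlLtJ mice was at least 4 times that in C57BL/6J and in CAST/EiJ. They were chosen by their measured levels: CPM values (a gene's estimated count over its library's total, times 1000000) were averaged per strain over both diets, and a gene was kept where the NZO/HlLtJ mean was at least 2 CPM and at least 4 times the higher of the other strains' means. Of the genes in the table, 74 (0.256%) passed both limits, and 31 of these were set aside by symbol, among them predicted genes and RIKEN clones, histone, collagen and cytochrome P450 genes and Hsd3b1. The 43 that were left lie on 16 chromosomes, and GENCODE M21 lists 40 of them as protein coding. Because the strain levels chose these genes, the levels below describe them, and no test of NZO/HlLtJ against another strain is given for them.

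The 23 libraries came from testes of male mice of 3 inbred strains, with wild-type genotype per the labels. Each strain was fed, from 6 to 16 weeks of age, either a 10% fat diet or a 44% fat diet rich in fat and sugar, both with fiber. There were 4 libraries for each diet in C57BL/6J, whose genome is the mouse reference, and in NZO/HlLtJ, a strain prone to obesity and diabetes. The wild-derived CAST/EiJ had 3 on 10% fat and 4 on 44% fat. Nothing in the labels says that the libraries of a group came from separate litters or cultures, so p-values measure the spread between these libraries, which may be technical. Library totals, in units of 1000000 estimated counts, were 21.9 to 38.4 for C57BL/6J, 33 to 78.7 for CAST/EiJ and 31.9 to 43.4 for NZO/HlLtJ. Germ cell markers of testis, which is the labelled tissue, were high in every library. Summed over 6 genes they were at 5980 to 7440 CPM in NZO/HlLtJ, 6580 to 7630 in C57BL/6J and 7160 to 8030 in CAST/EiJ. By the edgeR quasi-likelihood test, 1 of the 6 was higher and 5 were lower in NZO/HlLtJ than in C57BL/6J. Against CAST/EiJ, 0 were higher and 4 lower, and the shares over all tested genes are given below. Epididymal markers summed to 13.5 CPM in C57BL/6J 10% fat replicate 2 and to 98.3 CPM in CAST/EiJ 44% fat replicate 2, and without these libraries the rule gives 44 genes, the 43 included. Every gene in the table had an estimated count above 0 in at least 12 libraries. A gene at exactly 0 outside the 8 NZO/HlLtJ libraries could thus not be among the 43. Estimated counts above 0 can be tiny fractions, as for Hba-a1 at 1.14e-11 CPM in its lowest C57BL/6J library, so genes with practically no reads could enter.

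The testis transcribes a wide range of genes, in germ cells that pass through meiosis into sperm, in Sertoli cells that nurse them, in Leydig cells that make testosterone, and in blood vessels, nerves and resident immune cells. Inbred strains carry fixed variants and fixed copies of genes. The 43 genes belong to no single pathway. Sorted loosely by role after their levels were seen, 12 make secreted, matrix or adhesion proteins, 7 make enzymes, 7 belong to immune functions and 5 to signalling or membrane proteins. Another 8 were put with nuclear or cytoskeletal proteins, and 4 are left over. The 8 include the small heat shock gene Hspb8 and Fam181b, for which no role is given here.

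In all 43 the lowest NZO/HlLtJ library lay above the highest library of the other strains, which the same measure gave for 8.27% of all genes in the table. The rule used these values, so nothing is read from that count. For the relatives and neighbours named below, which the rule did not choose, the background by the edgeR quasi-likelihood test is that 59.1% of all tested genes differed between NZO/HlLtJ and C57BL/6J (30.4% higher in NZO/HlLtJ, 28.7% lower) and 72.1% between NZO/HlLtJ and CAST/EiJ (39.6% higher, 32.5% lower). The ratio of the NZO/HlLtJ mean to the higher other mean ran from 4.02 to 144 with a median of 7.61, and it was at least 10 in 20 genes and at least 50 in 8. NZO/HlLtJ means ran from 2.01 to 57.3 CPM, and the coefficient of variation over the 8 NZO/HlLtJ libraries ran from 3.24% to 42.3% with a median of 14.3%. Per kilobase of exon, the level in NZO/HlLtJ was lowest for Fign at 0.201 CPM and highest for the spindlin gene Spin2g at 20.5 CPM, followed by Spin2f at 16.6, Aebp1 at 14.1 and Adh1 at 10.6 CPM. Genes just inside the ratio limit were Tnfaip8 at 4.017, Paqr6 at 4.054 and Adh1 at 4.314, and just outside it were Cldn23 at 3.947, Nxph3 at 3.87 and Cntn4 at 3.821. In bulk tissue, more cells of one type and more RNA per cell cannot be told apart.

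**Figure D1:**
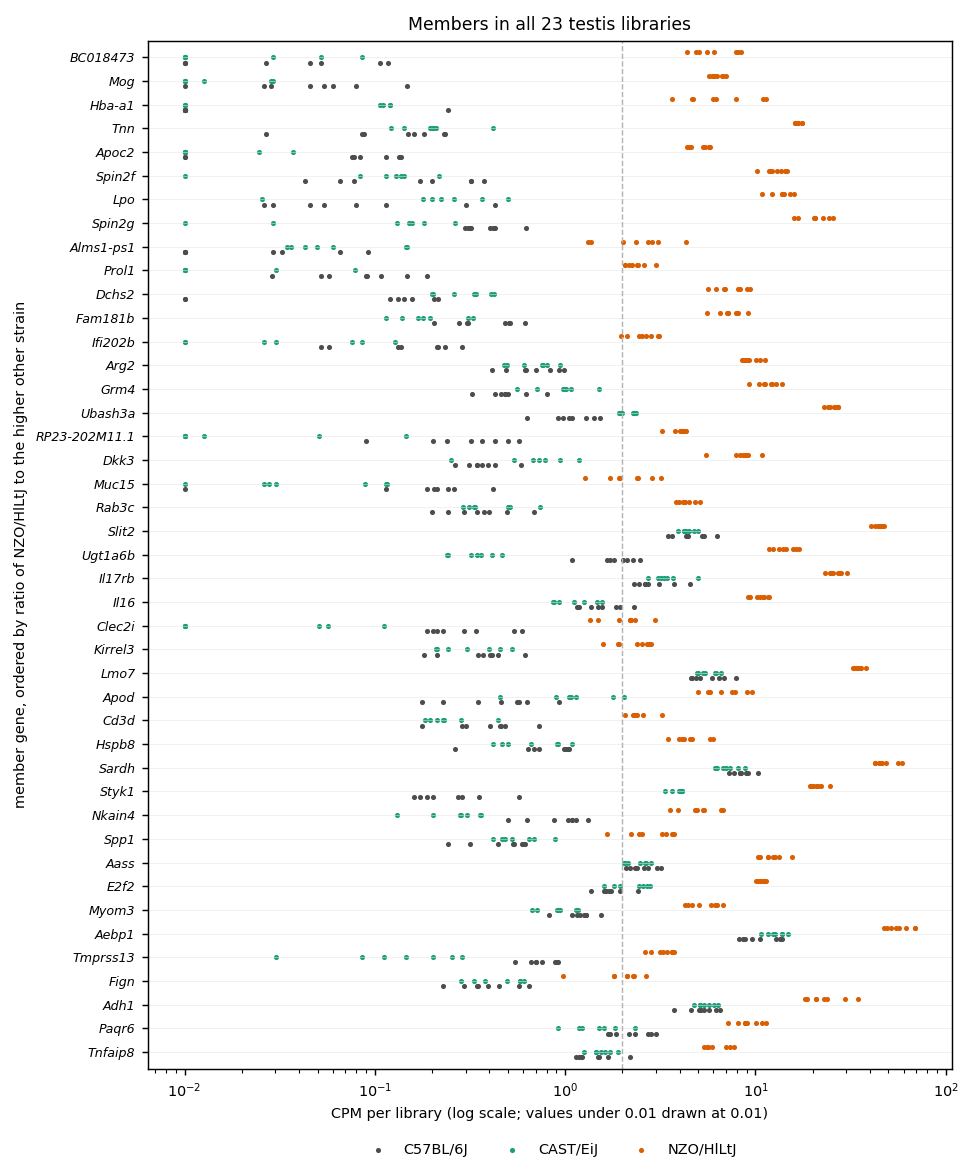
Level of each of the 43 genes in each of the 23 libraries (horizontal log axis, CPM; each point is 1 library, coloured by strain, values under 0.01 drawn at 0.01), with genes ordered by the ratio of NZO/HlLtJ to the higher other strain. The 8 NZO/HlLtJ points lie to the right of all others in every row, the ratio of means is largest for BC018473, Mog and Hba-a1, and the dashed line marks the limit of 2 CPM on the NZO/HlLtJ mean.

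Among the genes of secreted and cell surface proteins, Tnn had the smallest coefficient of variation of the 43. Tnn encodes tenascin-N, a glycoprotein of the extracellular matrix, and lies on the minus strand at chr1:160085029-160153580 (GRCm38, as are all positions here). The lowest, median and highest library, the order used for such triplets below, stood at 16.2, 16.6 and 17.6 CPM in NZO/HlLtJ, at 0.0267, 0.156 and 0.234 CPM in C57BL/6J and at 0.121, 0.203 and 0.419 CPM in CAST/EiJ. The NZO/HlLtJ mean of 16.7 ± 0.541 CPM (SD, n = 8) was 78.4 times the CAST/EiJ mean of 0.213 ± 0.0971 CPM (n = 7), and the 8 libraries varied by 3.24%. The other tenascins did not share this pattern: Tnc was lower in NZO/HlLtJ than in C57BL/6J (log2 fold change -0.55, SE 0.10) and differed from CAST/EiJ by 0.06 (SE 0.10, adjusted p = 0.609), and Tnr was higher than in C57BL/6J (1.78, SE 0.31) and differed from CAST/EiJ by -0.07 (SE 0.27, adjusted p = 0.815). These log2 fold changes and adjusted p-values, and those below, come from edgeR's quasi-likelihood test with Benjamini-Hochberg adjustment over 22873 genes.

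Mog encodes myelin oligodendrocyte glycoprotein, a protein of the outer myelin sheath in the brain, at chr17:37010743-37023398 on the minus strand. It read 5.72, 6.22 and 7.0 CPM in NZO/HlLtJ against 0, 0.0497 and 0.147 CPM in C57BL/6J. CAST/EiJ had 3 counts of it over 7 libraries, a pooled 0.0102 CPM with an exact 95% Poisson interval of 0.0021 to 0.0297 CPM that covers counting error only. Against C57BL/6J the ratio was 115. Of 7 other myelin genes tested, 4 were higher and 2 lower in NZO/HlLtJ than in C57BL/6J, and 3 were higher and 3 lower than in CAST/EiJ, where all tested genes gave 30.4% and 28.7%, and 39.6% and 32.5%. Mag, for myelin-associated glycoprotein, was lower than in both, at 11 ± 1.23 CPM against 19.2 ± 1.58 in C57BL/6J and 13.5 ± 1.47 in CAST/EiJ, so it went the opposite way to Mog. The 5 nerve and glia markers summed to 20.7 to 30.9 CPM in NZO/HlLtJ libraries, 17.8 to 19.3 in C57BL/6J and 21.8 to 26.4 in CAST/EiJ, ranges that differ far less than Mog did. Their part in the level of Mog was not tested.

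Apoc2 encodes the apolipoprotein that activates lipoprotein lipase and lies on the minus strand at chr7:19671579-19677941. NZO/HlLtJ libraries stood at 4.36, 5.34 and 5.75 CPM, C57BL/6J libraries at 0, 0.0809 and 0.137 CPM, and CAST/EiJ libraries at 0, 0 and 0.037 CPM. Prol1, for a proline-rich secreted protein first described in lacrimal gland, at chr5:88317312-88328814, read 2.05, 2.31 and 2.99 CPM in NZO/HlLtJ, 0.0287, 0.0907 and 0.187 in C57BL/6J, and 0, 0 and 0.0786 in CAST/EiJ. Both were thus near the limit of detection in the other strains, with 20.7 and 26 counts in all C57BL/6J libraries together and 3.89 and 4 in CAST/EiJ, and their ratios of 66.3 and 24.9 rest on those few counts.

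Dchs2 encodes a large cadherin of the Dachsous family, which pairs with Fat cadherins to orient cells in a tissue, at chr3:83127948-83357209. It stood at 5.65, 7.47 and 9.33 CPM in NZO/HlLtJ, 0, 0.138 and 0.215 in C57BL/6J and 0.199, 0.333 and 0.424 CPM in CAST/EiJ, a ratio of 24.3. Its paralog Dchs1 ran in another order, with 28.4 ± 1.56 CPM in C57BL/6J above 8.4 ± 0.892 in NZO/HlLtJ and 3.8 ± 0.172 in CAST/EiJ. Slit2, a secreted guidance cue that binds Robo receptors, at chr5:47983138-48307733, read 40.4, 45.3 and 47.6 CPM in NZO/HlLtJ, 3.49, 4.4 and 6.3 in C57BL/6J and 3.9, 4.32 and 4.97 CPM in CAST/EiJ. Unlike Apoc2 or Prol1, Slit2 was clearly expressed in all 3 strains, and its ratio of 9.62 rests on 1250 counts in C57BL/6J and 1280 in CAST/EiJ. Slit1 was highest in C57BL/6J, at 10.3 ± 0.771 CPM against 1.57 ± 0.189 in NZO/HlLtJ and 0.952 ± 0.0926 in CAST/EiJ, and the receptor gene Robo1 stood at 12.2 ± 0.672, 11.6 ± 1.36 and 9.75 ± 0.593 CPM in the same order of strains.

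Aebp1 encodes a secreted, collagen-binding protein of the carboxypeptidase family. Its libraries read 47.3, 55.5 and 69.2 CPM in NZO/HlLtJ, 8.21, 10.1 and 13.7 in C57BL/6J and 10.7, 12.7 and 14.9 in CAST/EiJ, a ratio of 4.46. Dkk3, a secreted protein of the Dickkopf family, read 5.5, 8.69 and 10.8 CPM in NZO/HlLtJ, 0.264, 0.355 and 0.587 in C57BL/6J and 0.25, 0.726 and 1.18 in CAST/EiJ, a ratio of 11.7. The membrane mucin gene Muc15 read 1.27, 2.16 and 3.19 CPM in NZO/HlLtJ, 0, 0.208 and 0.417 in C57BL/6J and 0, 0.0303 and 0.116 in CAST/EiJ (ratio 10.8). Both were thus under 1.3 CPM in every library of the other strains. The adhesion gene Kirrel3 read 1.58, 2.45 and 2.83 CPM in NZO/HlLtJ, 0.182, 0.387 and 0.613 in C57BL/6J and 0.21, 0.305 and 0.523 in CAST/EiJ, the lipocalin gene Apod 5, 7.04 and 9.53 CPM in NZO/HlLtJ, 0.176, 0.509 and 0.932 in C57BL/6J and 0.455, 1.07 and 2.03 in CAST/EiJ, and Spp1, for osteopontin, 1.66, 2.87 and 3.71 CPM in NZO/HlLtJ, 0.242, 0.537 and 0.615 in C57BL/6J and 0.419, 0.527 and 0.879 in CAST/EiJ. Their ratios were 6.23, 5.9 and 4.86, and the groups did not overlap.

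For Tnn, Mog, Apoc2, Prol1 and Fam181b, the members of ratio above 18 with a RefSeq start within 14 bases of the deposited gene start, the 250 bases before that start are printed to show what precedes genes that were low in the reference strain. RefSeq (GRCm38.p6) holds the C57BL/6J sequence, a strain in which all 5 were low, and the NZO/HlLtJ sequence was not used here. Capitals mark, on either strand, any TATAAA of a promoter box, any TGACGTCA of the cAMP response type and any GGGCGG of the Sp1 type. Tnn at chr1:160153576-160153825, Mog at chr17:37023399-37023648 and Apoc2 at chr7:19677942-19678191 are read from the minus strand. Prol1 at chr5:88317062-88317311 and Fam181b at chr7:93079629-93079878 are read from the plus strand.
Tnn: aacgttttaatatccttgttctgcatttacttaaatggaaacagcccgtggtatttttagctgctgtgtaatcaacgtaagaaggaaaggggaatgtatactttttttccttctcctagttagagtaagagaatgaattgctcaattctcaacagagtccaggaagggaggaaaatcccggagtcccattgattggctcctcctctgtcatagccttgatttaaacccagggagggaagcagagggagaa
Mog: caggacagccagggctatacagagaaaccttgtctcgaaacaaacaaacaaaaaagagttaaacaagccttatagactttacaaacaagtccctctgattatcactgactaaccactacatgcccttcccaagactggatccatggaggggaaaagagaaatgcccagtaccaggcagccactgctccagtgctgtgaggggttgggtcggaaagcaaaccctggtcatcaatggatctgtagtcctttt
Apoc2: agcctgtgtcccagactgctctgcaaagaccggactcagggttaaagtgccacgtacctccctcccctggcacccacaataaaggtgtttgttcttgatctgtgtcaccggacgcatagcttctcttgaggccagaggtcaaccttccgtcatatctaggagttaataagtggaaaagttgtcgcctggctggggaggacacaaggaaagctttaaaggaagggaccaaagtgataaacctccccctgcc
Prol1: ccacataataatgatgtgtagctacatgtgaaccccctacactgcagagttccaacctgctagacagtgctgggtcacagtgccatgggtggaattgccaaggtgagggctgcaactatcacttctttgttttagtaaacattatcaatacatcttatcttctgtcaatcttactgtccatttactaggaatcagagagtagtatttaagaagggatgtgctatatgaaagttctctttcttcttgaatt
Fam181b: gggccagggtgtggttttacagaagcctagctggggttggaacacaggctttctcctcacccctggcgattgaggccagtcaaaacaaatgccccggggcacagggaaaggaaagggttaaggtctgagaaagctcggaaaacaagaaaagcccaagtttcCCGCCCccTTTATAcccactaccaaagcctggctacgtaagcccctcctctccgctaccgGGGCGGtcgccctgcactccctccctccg
Only the Fam181b window of these 5 held any of the motifs, 1 TATAAA and 2 GGGCGG, so the 5 windows share none of them. Of the 43 genes, 30 had a promoter in the RefSeq table, and TATAAA was found in 3 of them, GGGCGG in 9 and TGACGTCA in 0, against 12.4%, 32.7% and 1.55% of all 32851 promoters in windows of the same length. The median number of CpG pairs per window was 4 in the 30 and 6 in all promoters. A window without these letters says nothing about the factors that bind it.

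Lpo led the enzymes. It encodes lactoperoxidase, an antimicrobial haem peroxidase of milk, saliva and airway fluid, on the minus strand at chr11:87806428-87828289. NZO/HlLtJ libraries stood at 10.8, 13.8 and 15.9 CPM, C57BL/6J libraries at 0.026, 0.0669 and 0.429 CPM and CAST/EiJ libraries at 0.0254, 0.222 and 0.498 CPM, a ratio of 54.8 with no overlap. Its neighbour Mpo, the myeloperoxidase gene of neutrophils, 2.02 kb away, was lower in NZO/HlLtJ than in both strains, at 0.631 ± 0.187 CPM against 2.91 ± 0.323 in C57BL/6J (log2 fold change -2.27, SE 0.14) and 2.29 ± 0.387 in CAST/EiJ (-1.98, SE 0.15). Pxdn, another haem peroxidase gene, whose product crosslinks collagen IV, was higher in NZO/HlLtJ (15.2 ± 2.16 against 5.99 ± 0.437 and 7.56 ± 0.489 CPM).

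Sardh, the mitochondrial sarcosine dehydrogenase of choline and glycine metabolism, was expressed in all 3 strains. It read 42.5, 45.7 and 59.2 CPM in NZO/HlLtJ, 7.24, 8.35 and 10.3 in C57BL/6J and 6.09, 6.97 and 8.76 CPM in CAST/EiJ, a ratio of 5.64. Adh1, an alcohol dehydrogenase that also oxidises retinol, read 18.2, 21.9 and 34.7 CPM in NZO/HlLtJ, 3.72, 5.26 and 6.53 in C57BL/6J and 4.78, 5.38 and 6.39 in CAST/EiJ. On the same stretch of chromosome 3, Adh4 went the other way, at 3.29 ± 0.514 CPM in NZO/HlLtJ against 11 ± 1.25 in C57BL/6J and 6.42 ± 0.957 in CAST/EiJ, Adh5 was higher in NZO/HlLtJ by a smaller step (42.8 ± 4.54 against 24.1 ± 1.9 and 23.1 ± 1.05 CPM), and Adh7 was at 8.05 ± 0.977 CPM against 7.02 ± 1.11 and 15.7 ± 2.11. Adh1 and Adh5 were thus highest in NZO/HlLtJ, Adh4 in C57BL/6J and Adh7 in CAST/EiJ. Arg2, the mitochondrial arginase, read 8.53, 9.12 and 11.2 CPM in NZO/HlLtJ, 0.411, 0.665 and 0.989 in C57BL/6J and 0.474, 0.756 and 0.943 in CAST/EiJ (ratio 13.6), while its paralog Arg1 was at 0.19 ± 0.136 CPM in NZO/HlLtJ and 0.216 ± 0.1 in C57BL/6J (log2 fold change -0.28, SE 0.46, adjusted p = 0.619), and higher than the 0.0525 ± 0.0523 CPM in CAST/EiJ (1.78, SE 0.60, adjusted p = 0.00957). Aass, which opens lysine breakdown, read 10.3, 12 and 15.5 CPM in NZO/HlLtJ, 2.08, 2.48 and 3.17 in C57BL/6J and 2.03, 2.48 and 2.82 in CAST/EiJ.

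Among the genes with immune functions, Il17rb encodes the receptor for interleukin 25 and stood at 23.1, 26.3 and 30.1 CPM in NZO/HlLtJ, 2.29, 2.68 and 4.52 in C57BL/6J and 2.71, 3.29 and 5.0 CPM in CAST/EiJ, a ratio of 7.58. Its partner receptor gene Il17ra was higher in NZO/HlLtJ by less, at 12.4 ± 3.76 CPM against 7.57 ± 0.518 and 7.5 ± 0.294. Ubash3a encodes a damper of T cell receptor signalling and read 22.9, 26.1 and 27.2 CPM in NZO/HlLtJ, 0.63, 1.07 and 1.52 in C57BL/6J and 1.91, 2.28 and 2.36 CPM in CAST/EiJ. Its ratio was 11.9, whereas Ubash3b stood at 6.93 ± 1.14, 4.26 ± 0.462 and 6.59 ± 0.466 CPM in that order of strains. Ifi202b, an interferon-inducible gene that has been studied as an obesity gene in NZO mice, read 1.96, 2.59 and 3.11 CPM in NZO/HlLtJ, 0.0521, 0.174 and 0.287 in C57BL/6J and 0, 0.0303 and 0.127 in CAST/EiJ, a ratio of 15.6. Clec2i, a C-type lectin gene, read 1.35, 2.2 and 2.95 CPM in NZO/HlLtJ, 0.188, 0.261 and 0.593 in C57BL/6J and 0, 0 and 0.111 in CAST/EiJ, and Tnfaip8, a regulator of cell death, 5.35, 5.78 and 7.7 CPM in NZO/HlLtJ, 1.14, 1.35 and 2.19 in C57BL/6J and 1.25, 1.55 and 1.89 in CAST/EiJ. Tnfaip8 lay nearest to the limit of the rule.

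Cd3d, a chain of the T cell receptor complex, read 2.05, 2.31 and 3.21 CPM in NZO/HlLtJ, 0.176, 0.429 and 0.73 in C57BL/6J and 0.183, 0.228 and 0.445 CPM in CAST/EiJ. Cd3e, the gene for its partner chain, was lower in NZO/HlLtJ than in C57BL/6J, at 0.196 ± 0.105 against 0.522 ± 0.112 CPM (log2 fold change -1.47, SE 0.32), and higher than in CAST/EiJ, where it was at 0.0648 ± 0.041 CPM (1.41, SE 0.43, adjusted p = 0.00459). Markers of T, B and NK cells summed to 1.79 to 3.66 CPM in NZO/HlLtJ, 2.53 to 4.37 in C57BL/6J and 1.43 to 2.25 in CAST/EiJ over the 4 of 5 genes in the table, none of them at 0 in all libraries of a strain. Of the 3 tested, 0 were higher and 1 was lower than in C57BL/6J, and 3 were higher than in CAST/EiJ, with a median log2 fold change of 0.94. For Cd3d the lowest NZO/HlLtJ library was 2.81 times the highest of the other strains. The part of these cells in the level of Cd3d was not tested.

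Tmprss13, a membrane serine protease gene 332 kb from Cd3d on chromosome 9, is one of the members that lie within 1 Mb of another. It read 2.63, 3.35 and 3.74 CPM in NZO/HlLtJ, 0.546, 0.729 and 0.912 in C57BL/6J and 0.0303, 0.145 and 0.288 in CAST/EiJ. A second pair on chromosome 7, with 481.1 kb between the genes, was Il16, for a cytokine that attracts CD4+ cells, and the long noncoding RNA gene RP23-202M11.1. Il16 read 9.16, 10.7 and 11.8 CPM in NZO/HlLtJ, 1.16, 1.53 and 2.29 in C57BL/6J and 0.862, 1.11 and 1.57 in CAST/EiJ. RP23-202M11.1 read 3.24, 4.08 and 4.33 CPM in NZO/HlLtJ, 0.0902, 0.342 and 0.572 in C57BL/6J and 0, 0 and 0.145 in CAST/EiJ. In both pairs each gene was higher in NZO/HlLtJ, as the rule requires, but the order of the other strains' levels was the same, C57BL/6J above CAST/EiJ.

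The third pair was Myom3, a myomesin of the muscle sarcomere, and E2f2, a transcription factor of the cell cycle, 356.8 kb apart on chromosome 4. Myom3 read 4.24, 5.43 and 6.75 CPM in NZO/HlLtJ, 0.826, 1.22 and 1.55 in C57BL/6J and 0.668, 0.915 and 1.17 in CAST/EiJ. E2f2 read 10.1, 10.9 and 11.3 CPM in NZO/HlLtJ, 1.36, 1.66 and 2.41 in C57BL/6J and 1.6, 2.44 and 2.79 in CAST/EiJ. The paralogs E2f1 (3.8 ± 0.652 CPM in NZO/HlLtJ, 3.49 ± 0.693 in C57BL/6J, 4.45 ± 0.453 in CAST/EiJ) and E2f3 (6.23 ± 0.605, 4.55 ± 0.755 and 4.72 ± 0.477) stayed within 1.5-fold of each other across strains. Skeletal muscle markers, beside which Myom3 may be read, summed to 0.51 to 0.82 CPM in NZO/HlLtJ, 0.541 to 1 in C57BL/6J and 0.812 to 1.43 in CAST/EiJ.

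Styk1, a membrane protein with a kinase-like domain, stood apart among the signalling genes because the other strains differed widely in it. It read 19.4, 20.5 and 24.5 CPM in NZO/HlLtJ, 3.35, 3.99 and 4.13 CPM in CAST/EiJ and 0.161, 0.237 and 0.572 CPM in C57BL/6J, so its ratio of 5.39 is to CAST/EiJ. The glutamate receptor gene Grm4 read 9.29, 11.7 and 13.7 CPM in NZO/HlLtJ, 0.322, 0.483 and 0.8 in C57BL/6J and 0.555, 0.987 and 1.51 in CAST/EiJ (ratio 11.9). Grm7, of the same receptor group, was higher than in both strains, at 1.71 ± 0.491 against 0.641 ± 0.21 and 0.481 ± 0.189 CPM, Grm6 was lower than in C57BL/6J (0.0712 ± 0.0381 against 0.919 ± 0.187 CPM, log2 fold change -3.73), and Grm8 passed only against CAST/EiJ (0.398 ± 0.107 against 0.484 ± 0.151 and 0.156 ± 0.0584). Of its 7 relatives, Grm7 was the only one with a mean of at least 1 CPM and at least 2 times both other means. Rab3c, a GTPase of exocytosis, read 3.83, 4.24 and 5.09 CPM in NZO/HlLtJ, 0.2, 0.361 and 0.684 in C57BL/6J and 0.29, 0.335 and 0.736 in CAST/EiJ, and Nkain4, which binds the sodium pump, 3.57, 5.11 and 6.72 CPM in NZO/HlLtJ, 0.498, 1.06 and 1.32 in C57BL/6J and 0.131, 0.285 and 0.361 in CAST/EiJ. Paqr6, of the progestin receptor family, read 7.2, 8.92 and 11.4 CPM in NZO/HlLtJ, 1.67, 2.25 and 3.01 in C57BL/6J and 0.917, 1.51 and 2.33 in CAST/EiJ.

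Lmo7, a LIM domain protein of adherens junctions and the actin cytoskeleton, read 32.7, 34.4 and 37.9 CPM in NZO/HlLtJ, 4.57, 5.5 and 7.9 in C57BL/6J and 4.95, 5.43 and 6.6 CPM in CAST/EiJ, a ratio of 6. Fam181b, at chr7:93079865-93081867, read 5.57, 7.18 and 9.13 CPM in NZO/HlLtJ, 0.205, 0.396 and 0.615 in C57BL/6J and 0.114, 0.18 and 0.327 in CAST/EiJ, a ratio of 18.3. The small heat shock gene Hspb8 read 3.48, 4.38 and 5.99 CPM in NZO/HlLtJ, 0.264, 0.858 and 1.05 in C57BL/6J and 0.419, 0.66 and 1.09 in CAST/EiJ, and the microtubule-severing gene Fign 0.968, 2.12 and 2.67 CPM in NZO/HlLtJ, 0.228, 0.369 and 0.645 in C57BL/6J and 0.285, 0.494 and 0.609 in CAST/EiJ. With a mean of 2.01 CPM, Fign lay nearest to the limit of 2 CPM. Of the 27 members with genes of the same symbol root in the table, 20 had no relative whose NZO/HlLtJ mean was at least 1 CPM and at least 2 times both other means.

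BC018473 had the largest ratio of the 43, 144. GENCODE M21 types it as an antisense transcript, at chr11:116752167-116759373. It read 4.35, 5.83 and 8.4 CPM in NZO/HlLtJ, 0, 0.0363 and 0.117 in C57BL/6J and 0, 0 and 0.0854 CPM in CAST/EiJ, and the other strains had 12 and 6 counts of it in all. Of the 43 genes, 18 overlap an annotated gene on the other strand and 8 one on the same strand. Overlap was taken over whole gene spans, introns included, and BC018473 itself overlaps no annotated gene. The sources used here do not say whether counting used strand. Whether exons overlap was not determined, so which members share reads with such neighbours is not known.

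Some of the 43 have near copies in the genome, and then a count can move between copies. For 32 genes, no 100-base window of the gene's longest transcript occurred in the transcripts of another gene, and 6 shared at least 15% of their windows. Only exact matches were counted, so near copies with scattered differences could be missed among the 32. For Hba-a1, one of the adult alpha globin genes, 56.5% of windows were shared with Hba-a2. Hba-a1 itself read 3.66, 6.07 and 11.4 CPM in NZO/HlLtJ, and at most 0.243 CPM in C57BL/6J and 0.12 CPM in CAST/EiJ. Hba-a2 was lower in NZO/HlLtJ, at 11.1 ± 3.53 CPM against 22.2 ± 6.86 in C57BL/6J and 17 ± 6.26 in CAST/EiJ. The sum of both was 18 ± 5.95 CPM in NZO/HlLtJ, 22.2 ± 6.9 in C57BL/6J and 17 ± 6.28 in CAST/EiJ, a ratio of 0.809, so the 106-fold ratio of Hba-a1 was not present in alpha globin as a whole.

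Alms1-ps1, a pseudogene of the Alström syndrome gene, shared 39.5% of windows with Alms1-ps2, which lies 17.9 kb away, and 35.9% with Alms1. It read 1.31, 2.54 and 4.32 CPM in NZO/HlLtJ and at most 0.0924 CPM in C57BL/6J and 0.148 CPM in CAST/EiJ. Alms1-ps2 was at 6.81 ± 0.611 CPM in NZO/HlLtJ, 8.56 ± 1.11 in CAST/EiJ and 0.189 ± 0.0975 in C57BL/6J. The sum of both pseudogenes was 9.31 ± 1.5 CPM in NZO/HlLtJ and 8.63 ± 1.13 in CAST/EiJ, means less than 1 SD apart, against 0.216 ± 0.113 in C57BL/6J. With Alms1 added, which at 330 ± 16.2 CPM in NZO/HlLtJ outweighs the pseudogenes, the ratio of the sums was 0.978.

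Ugt1a6b, a glucuronosyltransferase that conjugates phenols, is one of a cluster of genes with shared last exons, and it shared 71.5% of windows with Ugt1a7c and 71.2% with Ugt1a6a. It read 11.8, 14.3 and 17.0 CPM in NZO/HlLtJ, 1.09, 1.91 and 2.46 in C57BL/6J and 0.238, 0.342 and 0.463 in CAST/EiJ, a ratio of 7.61. Ugt1a6a was lower in NZO/HlLtJ (31 ± 2.35 CPM against 34.1 ± 1.62 and 39.5 ± 5.65), and the sum over the gene and its 8 partners was 61.7 ± 4.8 CPM against 46.8 ± 1.71 and 46.5 ± 6.32. Its ratio of 1.32 is diluted by the more abundant partners, and the sum was still higher in NZO/HlLtJ by more than its spread.

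Spin2f at chrX:31253894-31255381 and Spin2g at chrX:34237049-34238733 belong to an X-linked family of histone readers with many pseudogenes. Spin2f read 10.2, 12.6 and 14.7 CPM in NZO/HlLtJ and at most 0.376 CPM in C57BL/6J and 0.218 CPM in CAST/EiJ. Spin2g read 15.9, 20.6 and 25.5 CPM in NZO/HlLtJ and at most 0.626 CPM in C57BL/6J and 0.264 CPM in CAST/EiJ. Spin2e (3.7 ± 0.303 CPM against 1.37 ± 0.343 and 0.0405 ± 0.087) and Spin2d (3.39 ± 0.402 against 0.781 ± 0.205 and 1.65 ± 0.332) were also higher in NZO/HlLtJ. Summed over Spin2f and the 16 genes that share a window with it, the level was 48.2 ± 5.53 CPM in NZO/HlLtJ, 4.62 ± 1.02 in C57BL/6J and 2.44 ± 0.324 in CAST/EiJ. The ratio of the sums was 10.4.

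Apoc2 has a second gene model of the same symbol with 87.3% of windows shared, and the sum of both was 5.31 ± 0.618 CPM, a ratio of 67.2. The sums kept ratios of 6.44 for Clec2i with Clec2h, 4.06 for Paqr6 with Gm6821 and 2.18 for Rab3c with Cplx2 and Emp2. Rab3c shared about 1.01% of its windows with Cplx2, so that sum mostly adds unrelated reads.

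**Figure D2:**
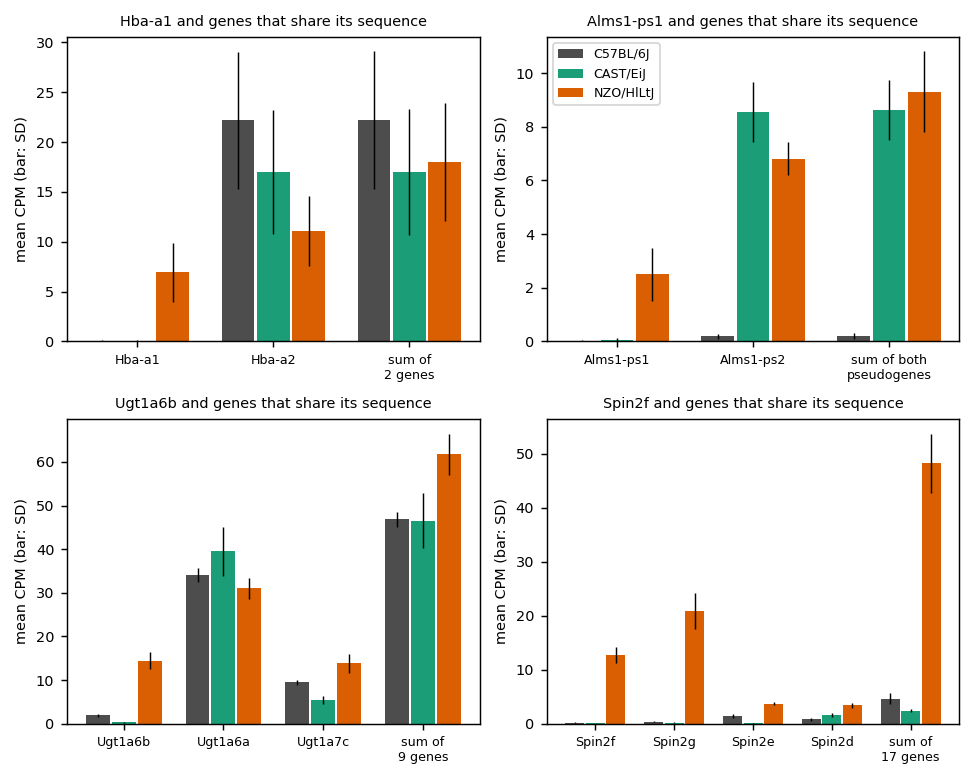
Mean CPM per strain (bars from 0, error bars SD; C57BL/6J n = 8, CAST/EiJ n = 7, NZO/HlLtJ n = 8) of 4 genes, of selected genes that share sequence with them and of the sum. The Hba-a1 sum is at 18 CPM in NZO/HlLtJ and 22.2 in C57BL/6J and the pseudogene sum at 9.31 in NZO/HlLtJ and 8.63 in CAST/EiJ, while the Spin2f sum is at 48.2 in NZO/HlLtJ against 4.62 and 2.44.

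Genes near the 43 were read for strain differences of the same direction. Within 500 kb of a member lay 623 tested genes that are no members, and 25 of them (4.01%) were at least 2-fold higher in NZO/HlLtJ than in both other strains by the fitted fold change, against 2.28% of 22830 genes that are no members. Lower by the same fold were 22 (3.53%) against 2.66%, and 1 of these 22 did not pass the test against CAST/EiJ (adjusted p = 0.114). The 623 include genes that overlap a member, whose reads may not be separate from those of the member. Among the 25 higher genes these are Gm16559 at Adh1, Gm26862 at Fam181b, Kirrel3os at Kirrel3 and C030005K06Rik at Tnfaip8. Among the 22 lower genes, Gm26662 overlaps Kirrel3. Of 86 nearest neighbours, 8 were higher (9.3%) and 3 lower. These shares are descriptions without a test, since genes of one locus are not independent.

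At the Apoc2 locus the neighbouring apolipoprotein genes were higher too. Apoc1, 11.5 kb away, stood at 20.1 ± 4.48 CPM in NZO/HlLtJ against 5.52 ± 1.14 in C57BL/6J (log2 fold change 1.79, SE 0.12) and 1.18 ± 0.257 in CAST/EiJ (4.01, SE 0.15), and Apoe, the apolipoprotein of lipoprotein uptake, at 187 ± 30.6 CPM against 62.8 ± 4.27 (1.5, SE 0.07) and 59.6 ± 6.07 (1.57, SE 0.07). Clptm1 on the other side, 6.55 kb away, was at 111 ± 5.59 CPM against 108 ± 8.48 in C57BL/6J (-0.03, SE 0.04, adjusted p = 0.542). It was slightly lower than the 121 ± 6.78 CPM in CAST/EiJ (-0.22, SE 0.04, adjusted p = 9.94e-05). BC018473 lay between 2 genes of the same direction: St6galnac1, a sialyltransferase gene, at 1.05 ± 0.263 CPM against 0.0223 ± 0.0284 and 0.0247 ± 0.0301, and Gm11735 at 0.516 ± 0.174 against 0.0457 ± 0.0366 CPM in C57BL/6J and 0 in CAST/EiJ.

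Around Cd3d and Tmprss13, Fxyd6, which modulates the sodium pump, was at 59.6 ± 6.3 CPM against 22.2 ± 2.77 and 21.2 ± 1.34, and Il10ra, the interleukin 10 receptor gene, at 4.62 ± 0.251 against 1.69 ± 0.319 and 0.822 ± 0.116. Fah, which ends tyrosine breakdown, near RP23-202M11.1, was at 10.3 ± 0.887 CPM against 2.89 ± 0.237 and 3.74 ± 0.292. Between Il16 and RP23-202M11.1, the predicted gene Gm7964 was at 5.49 ± 0.606 CPM against 0.0468 ± 0.0335 and 0.045 ± 0.047, past both limits of the rule but set aside by its symbol. Near Ubash3a, the cholesterol exporter gene Abcg1 was at 4.69 ± 0.836 CPM against 1.87 ± 0.347 and 1.97 ± 0.579. Within 500 kb of Clec2i, though not next to it, the lectin-like receptor gene Klrb1a was at 0.558 ± 0.281 CPM against 0.188 ± 0.0745 and 0.0248 ± 0.0323, and 2310001H17Rik at 4.12 ± 1.12 against 0.577 ± 0.193 and 0.418 ± 0.116.

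Other loci held genes of opposite direction. Around Ifi202b, 4 genes, among them its relatives Mndal, Mnda and Ifi205, were lower in NZO/HlLtJ: Mndal was at 0.0366 ± 0.0399 CPM against 1.01 ± 0.265 in C57BL/6J and 0.555 ± 0.164 in CAST/EiJ. Near Alms1-ps1, the acetyltransferase-like genes Cml1 (5.63 ± 1.14 against 2.06 ± 0.353 and 0.996 ± 0.286 CPM) and Cml5 (2.78 ± 0.689 against 1.21 ± 0.315 and 1.2 ± 0.313) were higher and Cml2 was lower (0.0553 ± 0.0327 against 0.484 ± 0.0978 and 5.38 ± 0.676). Near Myom3, Stpg1, of a sperm tail repeat protein, was lower, at 32.6 ± 1.83 CPM against 90.3 ± 7.35 and 92.5 ± 4.12. The nearest tested genes of Tnn did not share its ratio: 4930523C07Rik was at 20.9 ± 2.31 CPM against 25.8 ± 1.52 in C57BL/6J, and Mrps14 at 16.4 ± 1.04 against 16.9 ± 1.41. The closest neighbour of Mog, Zfp57, which maintains imprints, was at 10.6 ± 1.34 CPM against 24.6 ± 1.81 in C57BL/6J and 10.7 ± 0.994 in CAST/EiJ.

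**Figure D3:**
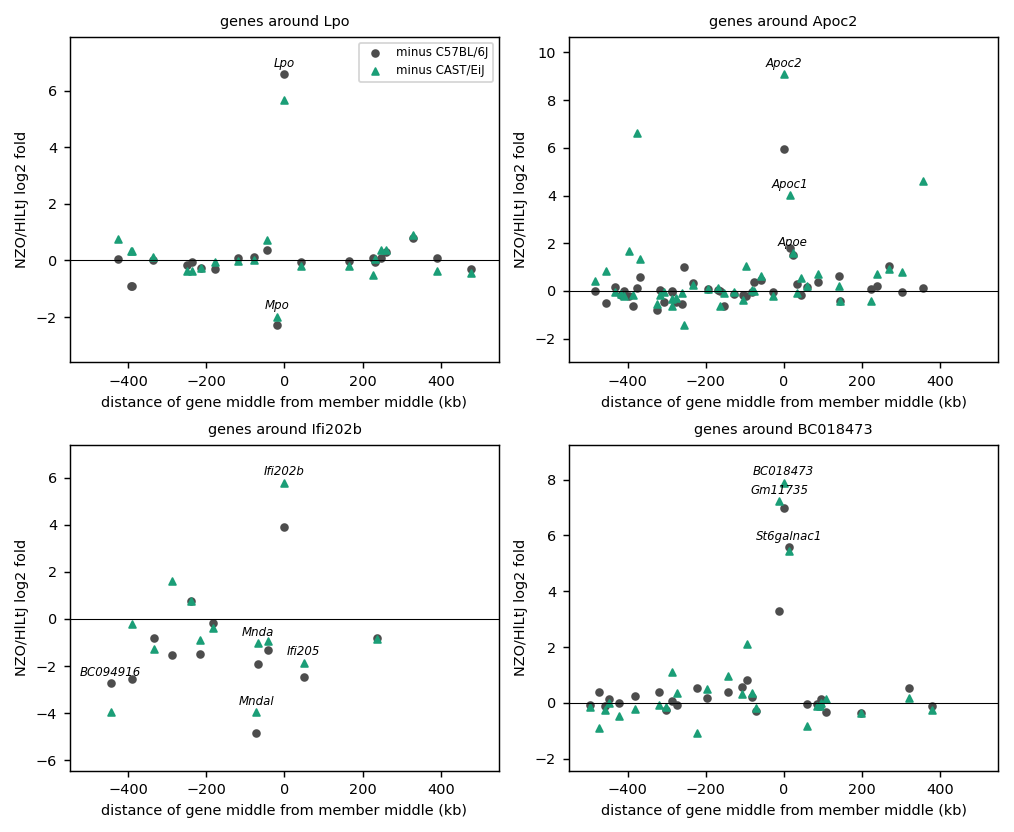
Log2 fold change of NZO/HlLtJ minus C57BL/6J (circles) and minus CAST/EiJ (triangles) for the tested genes around 4 members, against the distance between gene middles in kb. Named genes are the member and those at least 2-fold different from both strains in 1 direction: Mpo lies low beside Lpo, Apoc1 and Apoe high beside Apoc2, Mndal low beside Ifi202b, and Gm11735 and St6galnac1 high beside BC018473.

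Among the 8 NZO/HlLtJ libraries the 43 genes were steady as a rule. The coefficient of variation was under 10% in 11 genes and over 25% in 6. The library of NZO/HlLtJ 10% fat replicate 4 was the highest for 15 genes, with a median of 110% of the strain mean, and 10% fat replicate 2 was the lowest for 13, with 89.7%. Replicate 4 on 10% fat had the highest sum of macrophage markers, 39.8 CPM, and the lowest of germ cell markers, 5980 CPM, among these libraries. It also had the highest sum of the Leydig cell markers, 1170 CPM, where the other 7 lay between 706 and 1020. The sum was 430 to 702 CPM in C57BL/6J and 360 to 561 in CAST/EiJ, below every NZO/HlLtJ library. The 4 genes of that list did not move together: Cyp17a1 (546 ± 90.6 CPM in NZO/HlLtJ against 283 ± 51.6 and 161 ± 32.2) and Insl3 (182 ± 50.6 against 136 ± 9.57 and 79.1 ± 12.6) were higher than in both strains, Cyp11a1 was lower than in both (80.6 ± 24.1 against 108 ± 16.6 and 148 ± 24.2), and Star passed neither test (74.8 ± 31.7 against 88.2 ± 21.5 and 75.2 ± 20.3). Sertoli cell markers summed to 50.6 to 71 CPM in NZO/HlLtJ, 37.3 to 44.3 in C57BL/6J and 42.2 to 46.9 in CAST/EiJ. Markers of undifferentiated spermatogonia summed to 36 to 53.4, 19.6 to 21.9 and 24.1 to 26.8 CPM, so both were above the other strains as well. Of the Sertoli cell genes, Fshr (4.94 ± 0.796 against 1.67 ± 0.224 and 2.42 ± 0.369 CPM) and Amh (1.83 ± 0.592 against 0.785 ± 0.271 and 0.902 ± 0.214) differed by larger folds. The folds were smaller for Sox9 (23.3 ± 2.66 against 17 ± 0.974 and 20 ± 1.36) and Gata4 (30.5 ± 3.65 against 21 ± 2.39 and 21.3 ± 1.73). The spermatogonial genes differed among themselves. Gfra1 was nearly level (9.79 ± 0.599 against 9.32 ± 0.639 and 9.85 ± 0.408 CPM). Ret (5.8 ± 0.618 against 1.41 ± 0.346 and 3 ± 0.358), Zbtb16 (19.5 ± 4.88 against 6.17 ± 1.07 and 8.92 ± 1.29) and Lin28a (8.96 ± 0.739 against 3.61 ± 0.309 and 3.82 ± 0.419) were higher in NZO/HlLtJ. The part of these cell types in the members' levels was not tested.

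Gene families of the members were read beside the 30.4% of all tested genes that were higher than C57BL/6J and the 39.6% higher than CAST/EiJ. Members left out, 5 of 5 spindlin genes were higher than C57BL/6J and 4 of 5 higher than CAST/EiJ, with median log2 fold changes of 0.87 and 0.91 (all tested genes 0.007 and 0.061). Of 6 Dachsous and Fat cadherin genes 2 were higher and 3 lower than C57BL/6J, and 2 were higher and 2 lower than CAST/EiJ. Among the spindlins, Spin2d and Spin2e share sequence with Spin2f and Spin2g, and the cadherin family held genes of both directions.

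Hba-a1 and Alms1-ps1, which share sequence with other genes, had the widest spread. Hba-a1 read 5.97, 6.18, 11 and 11.4 CPM in the libraries on 10% fat and 7.91, 4.7, 3.66 and 4.62 CPM on 44% fat. The libraries at 11 and 11.4 CPM were also the highest for the 4 red blood cell markers, with sums of 61.5 and 52.2 CPM where the other 6 lay between 34.6 and 41.6. Hba-a2, the near copy of Hba-a1, is among those 4, so these sums are not independent of the count of Hba-a1. Alms1-ps1 read 2.72, 2.86, 1.37 and 1.31 CPM on 10% fat and 2.02, 3.06, 2.36 and 4.32 CPM on 44% fat, with the low values in the same 2 libraries. Their sample numbers fall in a run with 6 libraries of the other strains, and no NZO/HlLtJ library on 44% fat is in that run.

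**Figure D4:**
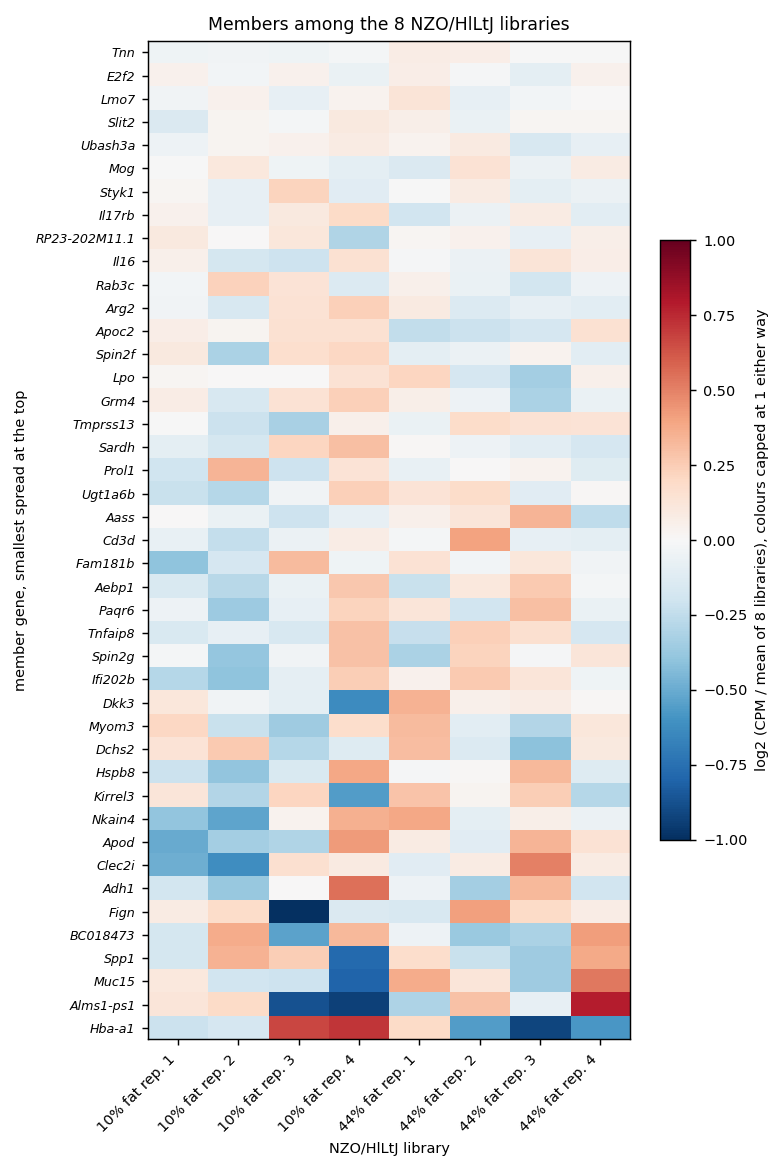
Log2 of each library's CPM over the mean of the 8 NZO/HlLtJ libraries (colour, capped at 1 in either direction) for the 43 genes (rows, smallest coefficient of variation at the top) and the 8 libraries (columns). Rows near the top, such as Tnn at 3.24%, are almost uniform, while Hba-a1, at 42.3%, and Alms1-ps1 at the bottom differ in opposite directions in 10% fat replicates 3 and 4.

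Diet was the contrast that the rule did not use, and 0 of the 43 genes passed the edgeR quasi-likelihood test for 44% against 10% fat in NZO/HlLtJ, where 0.00437% of all tested genes did. At an unadjusted p under 0.05 there was 1 member and 1555 of 22873 genes, and DESeq2 called 0 members too. The log2 fold changes of the members lay between -0.73 and 0.51 with a median of 0.02 (all tested genes -0.002) and a median SE of 0.17. They were above 0 in 27 genes and below 0 in 16. The 95% interval lay within 2-fold in either direction for 40 genes and within 1.5-fold for 33, so a diet effect larger than 2-fold was outside the interval in 40 of 43. Tnn, for example, was at 16.3 ± 0.146 CPM on 10% fat and 17.1 ± 0.471 CPM on 44% fat (n = 4 each). The smallest p belonged to Hba-a1 (log2 fold change -0.73, SE 0.28, adjusted p = 0.723), then to Sardh (-0.16, SE 0.09, adjusted p = 0.773) and Alms1-ps1 (0.51, SE 0.30, adjusted p = 0.78). Sardh read 45, 42.5, 55.8 and 59.2 CPM on 10% fat and 48.6, 46.3, 44.6 and 42.7 CPM on 44% fat, so the groups overlapped. In the libraries of the first run of sample numbers alone (2 on each diet) all 3 turned their direction, to 0.04, 0.11 and -0.15.

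**Figure D5:**
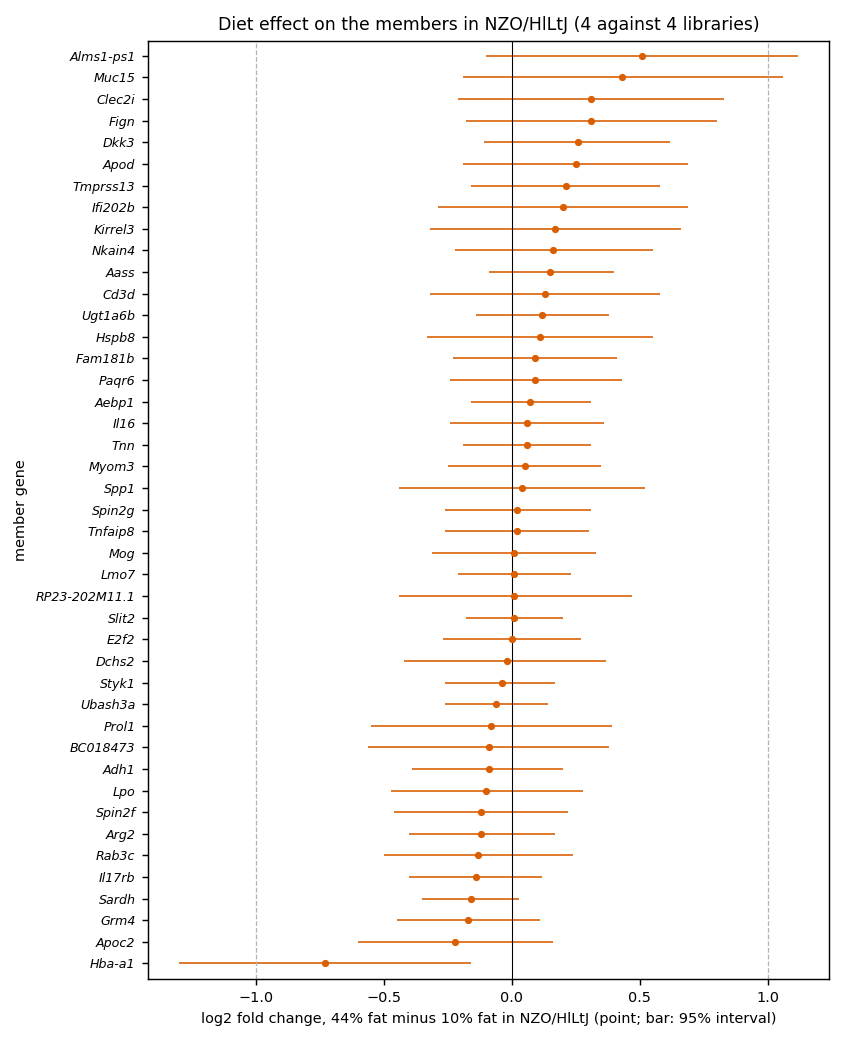
Log2 fold change for 44% minus 10% fat in NZO/HlLtJ (point) with its 95% interval (bar) for the 43 genes, sorted by size; dashed lines mark a 2-fold change. Intervals of 40 genes lie between the dashed lines, and none of the 43 passed the test after adjustment.

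In C57BL/6J and CAST/EiJ, where these genes are low by the rule, diet called 0 of 43 as well, where 0.00874% and 0% of all genes were called. Counts at an unadjusted p under 0.05 were 2 members of 670 genes in C57BL/6J and 5 of 941 in CAST/EiJ, and DESeq2 called 0 members in each. Members passed the filter on low counts also where only NZO/HlLtJ reached it, and for those with a few counts in a strain, such as Mog, Prol1 and Apoc2 in CAST/EiJ, a count of 0 calls says nothing about diet. The median SE was 0.33 in both strains. In C57BL/6J 12 members were above 0 and 31 below, with a median of -0.20 (0 over all tested genes to 2 decimals), and in CAST/EiJ 25 were above and 18 below, with a median of 0.03. Of the genes with the smallest p, Aebp1 read 13.7, 13.4, 8.21 and 12.8 CPM on 10% fat and 9.55, 8.84, 8.61 and 10.6 CPM on 44% fat in C57BL/6J (log2 fold change -0.34, SE 0.14, adjusted p = 1). Apod read 1.07, 0.455 and 0.891 CPM on 10% fat and 1.05, 2.03, 1.79 and 1.14 CPM on 44% fat in CAST/EiJ (0.86, SE 0.32, adjusted p = 1). In both cases the ranges of the diets overlapped. Prol1 and Clec2i, with larger fitted changes in CAST/EiJ (-3.66 and 4.13), rest on 4 and 10 counts over all 7 libraries. The diet effect in NZO/HlLtJ minus that in C57BL/6J, the test of the difference itself, called 0 of 43 (0% of all genes; 3 members and 926 genes at an unadjusted p under 0.05; 0 by DESeq2). It was above 0 in 30 members and below 0 in 13, with a median of 0.23 and a median SE of 0.37.

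The rule put a ceiling on C57BL/6J and CAST/EiJ but did not set their order, and 25 of the 43 genes (58.1%) differed between them by the edgeR test, where 66.8% of all tested genes did. Of these, 8 were higher in CAST/EiJ (32.7% of all genes) and 17 lower (34.1% of all genes). All 43 passed the filter on low counts, which the NZO/HlLtJ libraries alone can satisfy, so the counts describe the genes and support nothing. Styk1 was higher in CAST/EiJ by a log2 fold change of 3.87 (SE 0.15, adjusted p = 1.57e-19), Ubash3a by 1.00 (SE 0.12, adjusted p = 1.95e-08) and Grm4 by 0.93 (SE 0.18, adjusted p = 4.73e-05). In the other direction, Ugt1a6b fell by 2.42 on the log2 scale from C57BL/6J to CAST/EiJ (SE 0.17, adjusted p = 3.95e-13), Tmprss13 fell by 2.12 (SE 0.23, adjusted p = 2.54e-09) and Nkain4 fell by 1.85 (SE 0.24, adjusted p = 8.07e-08). Summed over Ugt1a6b and the partners that share its windows, the level was 46.8 ± 1.71 CPM in C57BL/6J and 46.5 ± 6.32 in CAST/EiJ. The fall of Ugt1a6b was thus not present in that sum, which the more abundant partners dilute. Whether counts moved between these copies was not tested. Slit2 (-0.04, SE 0.09), Lmo7 (-0.00, SE 0.10) and Arg2 (-0.01, SE 0.17) stood at nearly the same level in both strains, with intervals of the difference well under 2-fold. With a fold of at least 2 asked beside the threshold, 15 of the 43 differed.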

How the data were processed

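RNA from testis was sequenced as polyA libraries, 100 bp paired per the labels. The authors deposited estimated counts per gene (23.2% of values are not whole), with library totals of 21.9 to 78.7 in units of 1000000. The submitters' processing notes name GRCm38 and DESeq2, while the sources used here name no aligner or counter and do not say how strain variants were handled. The deposited table of transformed values was not used. CPM used column totals. For tests, estimated counts were rounded, low genes removed with filterByExpr over 6 groups (22873 of 28861 left), and edgeR 4.0.16 (R 4.3.3) fitted with TMM scaling, 1 mean per group over all 23 libraries and Benjamini-Hochberg adjustment at 0.05. DESeq2 1.42.0, other scalings and filters, a covariate for the 3 runs of sample numbers (no label calls them batches) and leaving out each library were tried. The fit was tested on simulated data. Positions came from the deposited annotation, where 37 of the 43 genes equal GENCODE M21, and promoters from RefSeq.

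The members and the gene lists were chosen with earlier results of these data known. Every member could be named. Full library values were given for the 12 members of largest ratio after adding 0.1 CPM to both means, the 8 with the highest NZO/HlLtJ mean, the 3 with the smallest diet p, those within 1 Mb of another or with a relative (counted in place of summing the relatives), and those nearest the ratio limit. Genes that are no members were named as nearest neighbours or relatives, and other neighbours within 500 kb were chosen after their values were seen. Marker lists (germ, Sertoli, Leydig, spermatogonial, macrophage, lymphoid, red blood, epididymal, adipose, smooth and skeletal muscle, nerve and epithelial cells) were summed per library. Macrophage markers summed to 27.4 to 39.8 CPM in NZO/HlLtJ, 19.2 to 27.6 in C57BL/6J and 22.1 to 26.6 in CAST/EiJ, smooth muscle markers to 295 to 318, 283 to 324 and 152 to 177, adipose markers to 5.27 to 7.59, 6.44 to 10.1 and 9.91 to 19.7, epithelial markers to 33.4 to 38.7, 40.6 to 50.1 and 30.8 to 36, and epididymal markers to 0.22 to 0.685, 0.12 to 13.5 and 0.0278 to 98.3. Some neighbouring and related genes are not reported here.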

Additional observations from a re-analysis of the deposited data

Results flagged for a closer look

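In 215 groups of 4 libraries (a gene on 1 diet in 1 strain), 16 (7.44%) held a library set apart from the other 3 by more than Dixon's 95% critical value for the gap over the range, where chance flags about 1 in 20 groups. Of these, 5 were in NZO/HlLtJ. NZO/HlLtJ 10% fat replicate 4 was the highest for Lpo (15.1 CPM, the others 13.7 to 13.9), Apod (9.53, the others 5 to 5.76) and Tnfaip8 (7.7, the others 5.6 to 5.93). Among the NZO/HlLtJ libraries it also had the highest sums of Leydig cell markers, 1170 CPM, and of macrophage markers, 39.8 CPM. Its sum of germ cell markers, 5980 CPM, was the lowest. The part of these in the 3 values was not tested. On 44% fat, NZO/HlLtJ replicate 1 was the highest for Dkk3 (10.8, the others 8.57 to 8.94) and replicate 2 for Cd3d (3.21, the others 2.26 to 2.39).

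In C57BL/6J 44% fat, replicate 2 was the highest for Il17rb (3.72 CPM, the others 2.64 to 2.72), Tnfaip8 (1.49, the others 1.18 to 1.22) and Hba-a1 (0.243), replicate 3 for Myom3 (1.55, the others 1.26 to 1.29) and replicate 1 for E2f2 (1.94, the others 1.6 to 1.64). In C57BL/6J 10% fat, replicate 3 was the lowest for Aebp1 (8.21, the others 12.8 to 13.7) and the highest for Alms1-ps1 (0.0657), and replicate 4 was the lowest for Hspb8 (0.639, the others 0.99 to 1.05). In CAST/EiJ 44% fat, replicate 2, whose epididymal markers summed to 98.3 CPM, was the highest for Rab3c (0.736, the others 0.313 to 0.335), and replicate 3 was the highest for Hba-a1 (0.11) and BC018473 (0.0854). The values of Hba-a1, Alms1-ps1 and BC018473 in these strains rest on a few counts, with the other 3 libraries at or next to 0.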

How the results depend on the processing

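The choice of members depended most on the ratio limit: a limit of 2 gave 290 genes and a limit of 8 gave 21. Other settings gave 30 to 57, with 42 on 10% fat alone (37 of the 43 kept) and 45 on 44% fat alone (all 43 kept). TMM-scaled CPM gave 39, without Clec2i, Fign, Paqr6 and Tnfaip8. Leaving out each library in turn gave 40 to 44. Of the settings added after the data were seen, leaving out the 2 libraries with epididymal transcripts gave 44 and leaving out NZO/HlLtJ 10% fat replicate 4 and 44% fat replicate 3 gave 39, without Adh1 and the 4 genes above and with Hsd17b14 gained. Diet called 0 members in each strain and in the difference NZO/HlLtJ minus C57BL/6J under all settings run, including each library left out (0 to 0). Of CAST/EiJ against C57BL/6J, 25 members were called, 15 with a fold of at least 2, and 22 to 27 with each library left out. With the first run of sample numbers alone, the diet change in NZO/HlLtJ reversed for Hba-a1 (0.04), Sardh (0.11) and Alms1-ps1 (-0.15), and the cause was not tested. Column totals in place of TMM moved the median of all genes for NZO/HlLtJ minus CAST/EiJ from 0.061 to 0.167 on the log2 scale. No paired analysis was possible because the labels carry no replicate numbers.

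Genes with a few counts in C57BL/6J or CAST/EiJ have ratios limited by depth, and genes absent from both strains could not enter the table. Only the first run of sample numbers holds NZO/HlLtJ libraries on both diets, so run and diet cannot be told apart in the other 4 libraries.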
